A study of Mus musculus with 4 samples.

Results

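The AP-1 family genes were followed across the cells of the mouse thymus in a wild-type and a mutant library. They were the 8 genes Jun, Junb, Jund, Fos, Fosb, Fosl2, Batf and Atf3, found by symbol among the 21926 genes of the count tables. All 8 had at least 1 UMI (unique molecular identifier, the tag of a counted mRNA molecule) in WT, and 7 had at least 1 in Eif4g2 cKO, where Atf3 had 0. AP-1 is a transcription factor built from pairs of basic leucine zipper proteins, in which a Jun protein pairs with itself, with a Fos protein, or with a Batf or Atf protein. Many of its genes are immediate-early genes, transcribed within minutes of a T cell receptor, MAP kinase or stress signal, whereas Jund is expressed more steadily. In the thymus, T cell receptor signalling through these pathways accompanies the selection of CD4+CD8+ double-positive (DP) cells and their maturation into single-positive (SP) cells.

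The study asked what loss of the translation initiation factor Eif4g2 does to thymocyte development. WT was an Eif4g2 flox/flox mouse with no Cre, and Eif4g2 cKO was a CD4-Cre; Eif4g2 flox/flox mouse, so both carried the floxed alleles. Both were labelled female, 5 weeks old and of the same batch, the line was kept on a C57BL/6 background, and unsorted thymus cells were captured in droplets. Each genotype had 1 library from 1 mouse, so no test between genotypes was possible. Intervals below are 95% intervals that cover counting error only, not the spread between mice. CD4-Cre acts in cells that have expressed Cd4, which most double-negative (DN) thymocytes have not.

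WT held 6014 cells with 18355050 UMIs (median 1732.5 per cell) and Eif4g2 cKO held 4335 cells with 18056277 UMIs (median 2140). Together, Kdm5d, Uty and Eif2s3y, which lie on the Y chromosome, gave 2542 UMIs in WT against 1 in the mutant library, so the WT library went against its label of a female mouse, and sex and genotype cannot be told apart in any comparison between the libraries. Ddx3y, which has a close X-linked relative, had 1427 and 510 UMIs. Levels are given as CPM, the UMIs of a gene scaled to a total of 1000000 UMIs in that group of cells. Eif4g2 itself was at 223 CPM in WT and 274 in Eif4g2 cKO over all cells, and it was at 258 and 521 CPM in DP-like cells and 179 and 351 in mature SP-like cells. The gene was thus not lower in the mutant library over all cells or in these classes. In cycling-like cells it was lower, at 237 CPM in WT and 166 in Eif4g2 cKO. As the counts do not show where in the gene the reads lie, they do not check the deletion. The libraries shared 1055 cell names, which are running names and not barcode sequences. Doublets were not removed, and single cells reached 50432 UMIs in WT and 44595 in Eif4g2 cKO.

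Clusters were named from marker genes, and clustering left out the AP-1 genes. In WT and Eif4g2 cKO, respectively, there were 96 and 126 DN-like, 711 and 648 cycling-like, 3360 and 2107 DP-like, 726 and 527 early post-selection-like, 641 and 210 mature SP-like, and 52 and 15 NKT or gamma delta T-like cells. Another 41 and 13 T lineage cells formed a cycling mature SP-like class. A further cluster of 277 and 660 T lineage cells, led by Pclaf, Srm and Gins2, stayed unnamed. Outside the T lineage were 64 and 25 antigen-presenting-like and 44 and 4 erythroid-like cells. Different clusters held most of the DP-like class in each library. In WT 2177 of its cells were in a cluster led by Smoc1, and in Eif4g2 cKO 1900 were in a cluster led by Rag1. The cycling-like class was split in the same way, with 510 WT cells in a cluster led by histone genes and 490 Eif4g2 cKO cells in a cluster led by Ube2c and Birc5. Values within these classes thus come from different clusters in each library.

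Windows of promoter sequence are shown because AP-1 and related proteins are known to bind such motifs and to regulate some of their own genes. The windows come from RefSeq (GRCm38.p6) and run from 250 bases before to 50 bases after each start site. The capitals mark the motif, and each window is written 5′ to 3′ on the strand of its gene. Jun carried TGANNTCA in its promoter on both sides of the start site, at chr4:95052252-95052275 and chr4:95052205-95052228 on the minus strand. Jund carried it at chr8:70697670-70697693 on the plus strand.
Jun upstream: cctcggggTGACATCAtgggctat
Jun downstream: ataagtgtTGAGCTCAggctggat
Jund: tgaggcagTGAAATCAccctcagt
TGACGT, searched on both strands, was found in Fos at chr12:85473816-85473837 (plus strand), in Batf at chr12:85686614-85686635 (plus strand) and in Atf3 at chr1:191183328-191183349 (minus strand, where it reads ACGTCA).
Fos: ccgcccagTGACGTaggaagtc
Batf: taacttgtTGACGTttccgccc
Atf3: atagcattACGTCAgcctggga
Of 32851 promoters, 14.1% held TGANNTCA and 7.51% held TGACGT. The shorter AP-1 motif TGANTCA was in 7.81% of promoters and in 0 of the members, and the CArG box was in 1.63% and in 0 of the members. These counts hold for the windows only, and sequence further from the start sites was not searched. These matches describe letters only. The RefSeq start site used for Jund was chr8:70697739, upstream of the span of the gene by GENCODE M21, which begins at 70698949. That used for Atf3, on the minus strand, was chr1:191183333, inside its GENCODE span, which reaches 191218039.

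Jund and Junb supplied most AP-1 UMIs in the T lineage, and Jund led in both libraries. In WT T lineage cells Jund had 2668 UMIs and Junb 2519, 41.8% and 39.4% of the AP-1 UMIs. In the mutant library Jund had 3486 and Junb 1317, 64.6% and 24.4%. Jun followed with 523 (WT) and 225 (mutant) UMIs, then Batf with 404 and 171 and Fos with 223 and 169. Fosl2 had 33 and 19 UMIs, Fosb 20 and 13, and Atf3 0 in both, which allows up to 0.17 CPM in each library (3 UMIs of its total). In WT DN-like cells Junb (34.8%), Jun (32.3%) and Jund (23.7%) had more even shares. The Jun share there rested in part on a single cell, without which 65 of the 102 Jun UMIs were left.

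**Figure D1:**
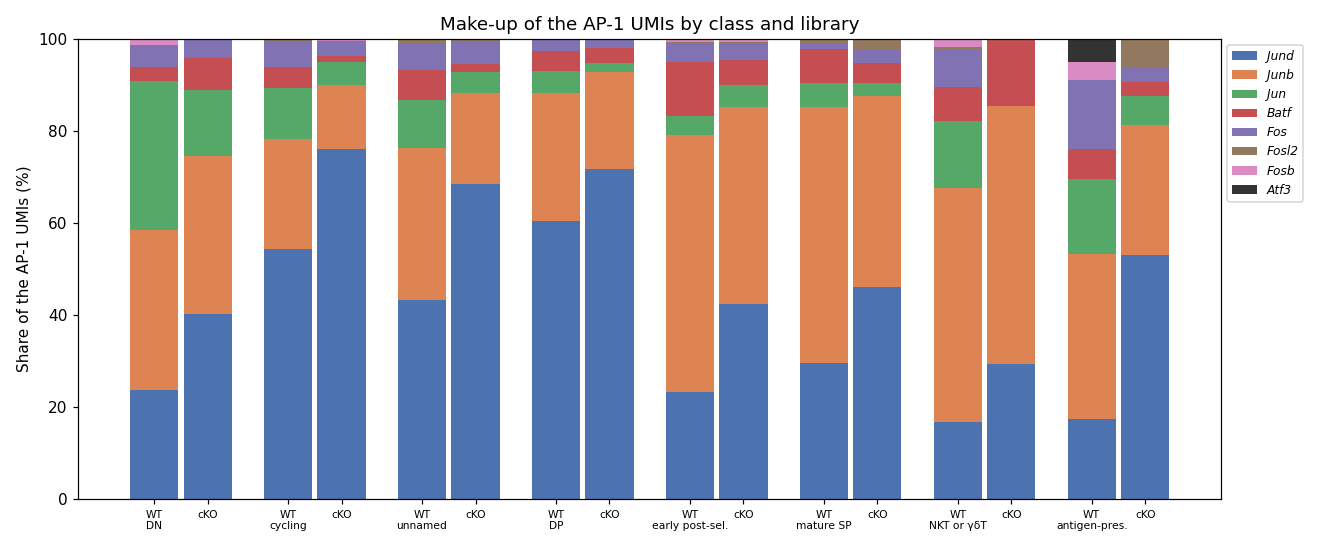
Share of the AP-1 UMIs (%) taken by each of the 8 genes, in stacked bars for WT and Eif4g2 cKO in each class. Jund took 60.3% in WT DP-like cells and 71.8% in Eif4g2 cKO DP-like cells, whereas Junb took 55.8% in WT early post-selection-like cells.

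The members did not share a single pattern across the stages. Junb, an AP-1 component known from T cell activation, was low in cycling-like cells and high in early post-selection-like and mature SP-like cells. In the 41 cycling mature SP-like WT cells Junb was at 81.2 CPM (53.0 to 119), an interval that overlapped that of DP-like cells. In WT it was at 49.9 CPM (43.6 to 56.8) in cycling-like cells, 95.3 (87.2 to 104) in DP-like cells, 312 (284 to 342) in early post-selection-like cells and 365 (341 to 390) in mature SP-like cells. The order in Eif4g2 cKO was the same at smaller range, with 35.8, 110, 202 and 220 CPM. The early post-selection-like and mature SP-like intervals overlapped in both libraries. The interval of the log2 ratio of mature SP-like to early post-selection-like cells lay above 0 in WT (0.23, 0.06 to 0.39) and included 0 in Eif4g2 cKO (0.12, −0.17 to 0.40).

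Jund followed another order, with a lower level in early post-selection-like than in DP-like cells of both libraries. WT levels were 207 CPM (195 to 219) in DP-like, 131 (113 to 150) in early post-selection-like and 195 (178 to 213) in mature SP-like cells. Eif4g2 cKO levels were 375 (355 to 396), 200 (176 to 227) and 243 (210 to 280) CPM in the same order. The mature SP-like and DP-like intervals overlapped in WT and not in Eif4g2 cKO. The unnamed class was the lowest of the T lineage classes of at least 20 cells in each library, at 69.4 CPM in WT and 109 in Eif4g2 cKO.

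Batf, which pairs with Jun proteins and acts with Irf4 in lymphocytes, resembled Junb in WT. It was at 14.5 CPM (11.5 to 18.1) in WT DP-like cells, 64.6 (52.3 to 79.0) in early post-selection-like cells and 48.2 (39.8 to 57.8) in mature SP-like cells. In Eif4g2 cKO the same levels were 16.6 (12.6 to 21.5), 25.5 (17.3 to 36.2) and 22.6 (13.4 to 35.7) CPM, with overlapping intervals. Within mature SP-like WT cells, those with only Cd4 UMIs had 66.3 CPM of Batf (44.1 to 95.9, 124 cells) and 415 CPM of Junb. Those with only Cd8a or Cd8b1 UMIs had 27.5 CPM of Batf (18.0 to 40.3, 253 cells) and 302 CPM of Junb (268 to 339). The intervals of these cells did not overlap for either gene, but for Batf they did without the cell with the most Batf UMIs in each (55.2, 35.0 to 82.8, and 24.4, 15.5 to 36.7). In Eif4g2 cKO Junb was at 360 CPM (247 to 509, 35 cells) and 189 (140 to 251, 64 cells), with overlapping intervals. Against DP-like cells, mature SP-like cells had higher Junb (log2 ratio 1.94), Batf (1.73) and Jun (1.01) in WT, where 11.8% of genes with at least 50 UMIs were higher by more than 0.5 and 49.1% lower. In Eif4g2 cKO the Junb ratio was 0.998 and Jun (0.58) and Fos (0.70) rested on under 50 UMIs, beside 7.47% of genes higher and 52.3% lower, and Jund was lower at −0.62.

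Jun and Fos, the founding immediate-early members, were low in most thymocytes. Jun was at 16.9 CPM (13.6 to 20.8) in WT DP-like cells and 166 (135 to 201) in WT DN-like cells. In Eif4g2 cKO the levels were 10.05 and 47.6 CPM. A single WT DN-like cell with 47667 UMIs held 37 of the 102 Jun UMIs of that class, and without it the level was 114 CPM (88.3 to 146). DN-like cells had more Jun than DP-like cells, by a log2 ratio of 3.29 in WT and 2.24 in Eif4g2 cKO, or 2.82 (2.33 to 3.30) and 2.17 (1.44 to 2.89) without the cell with the most Jun UMIs in each class. Of all genes 14.6% in WT and 12.1% in Eif4g2 cKO were higher by more than 0.5 in DN-like cells, and 51.9% and 53.7% lower. In WT DN-like cells with a UMI of Il2ra, a marker of the DN stages, Jun was at 158 CPM, or 90.7 (64.8 to 124) without the cell that held the most, and in those with no Il2ra UMI at 197 (127 to 290), or 161 (96.8 to 251). Fos was between 7.89 and 22.7 CPM in the named WT classes from DN-like to mature SP-like. Fosl2, a Fos-related gene, had 15 UMIs in mature SP-like WT cells (6.23 CPM, 3.49 to 10.3) and 9 in Eif4g2 cKO (11.3 CPM, 5.16 to 21.4), against at most 4 in each class from DN-like to early post-selection-like. Cycling mature SP-like WT cells held 5 Fosl2 UMIs (15.6 CPM, 5.07 to 36.4).

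**Figure D2:**
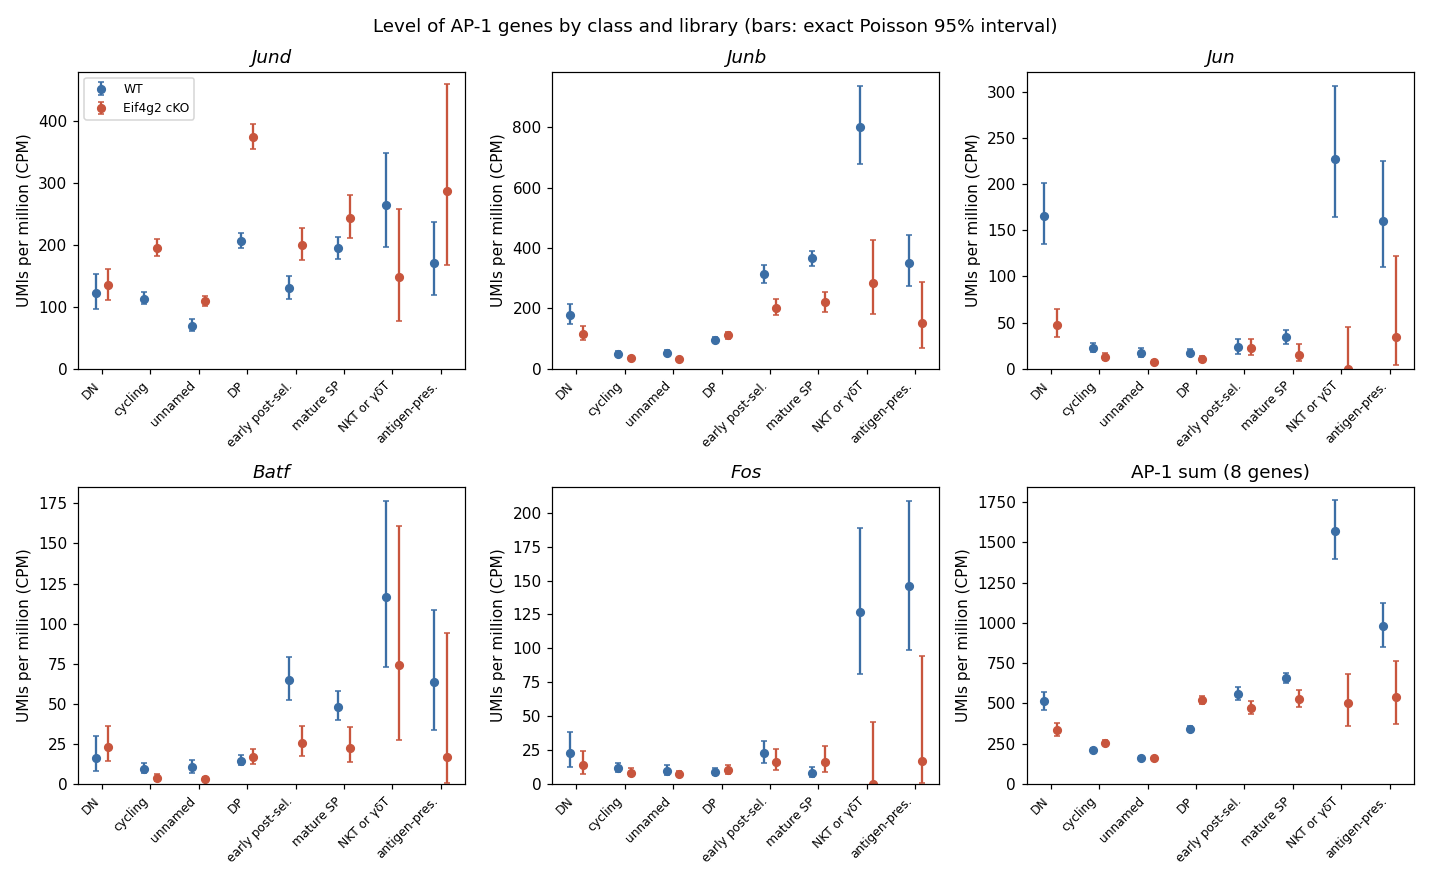
Level (CPM) of 5 AP-1 genes and of the sum of all 8 by class, for WT (blue) and Eif4g2 cKO (red), with exact Poisson 95% intervals. Junb and Batf were higher in early post-selection-like and mature SP-like than in DP-like WT cells, whereas Jund was lower in early post-selection-like than in DP-like cells of both libraries.

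The NKT or gamma delta T-like cells had the highest Junb level of any WT class, at 800 CPM (677 to 938), with 78.8% of 52 cells holding a UMI. Against mature SP-like cells this was a log2 ratio of 1.13, where 14.5% of all genes with at least 50 UMIs were higher by more than 0.5 and 34.7% lower. In the mutant library it was at 283 CPM (180 to 425) in 15 cells. A single WT cell with 2357 UMIs held 37 of the 43 Jun UMIs and 13 of the 24 Fos UMIs of this class. Without it Jun went from 228 to 32.2 CPM (11.8 to 70.0) and Fos from 127 to 59.0 (29.4 to 106), while Junb went to 735 (617 to 868.4). Fos without that cell was still above its level in mature SP-like cells (7.89 CPM, 4.75 to 12.3), and the Jun interval overlapped that of mature SP-like cells (34.1 CPM, 27.1 to 42.3).

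Outside the T lineage, Atf3, a stress-induced member, was seen only in antigen-presenting-like WT cells among the classes of both libraries. All 10 of its UMIs were there, 48.7 CPM (23.4 to 89.6), all in cells that also held a UMI of a macrophage marker, and 5 of them in 1 cell. In the 25 Eif4g2 cKO cells of this class it was at 0, which allows up to 50.7 CPM and does not separate the libraries. Fosb had 8 UMIs in the WT class (39.0 CPM, 16.8 to 76.8). Junb was at 351 CPM (274 to 442), and at 634 (451 to 867) in the 24 cells with a B cell marker UMI. Jun was at 161 and Fos at 146 CPM over the 64 WT cells. A single cell with 19436 UMIs held 19 of 33 Jun, 12 of 30 Fos and 4 of 8 Fosb UMIs, and without it Jun was at 75.3 CPM (41.2 to 126), Fos at 96.8 (57.4 to 153) and Fosb at 21.5 (5.86 to 55.1). T lineage markers were at 2635 CPM in this class in WT and 4070 in Eif4g2 cKO, against 8716 in WT DP-like cells, and their part in these levels was not tested. Of the 64 WT cells, 43 held a Cd3 UMI, and the 21 that did not had 343 CPM of Jun against 72.3 in those that did. The cell with 19 Jun UMIs was among the 21, and without it they had 84.1 CPM (22.9 to 215). Over all cells outside the T lineage in WT, Fos (log2 ratio 2.33, 1.73 to 2.89) and Jun (1.24, 0.69 to 1.75) were higher than in T lineage cells and Jund was lower (−0.66, −1.12 to −0.24), while 4.73% of genes were higher by more than 0.5 and 83% lower. Without the cell with the most UMIs of each gene on each side, Jun was at 0.17 (−0.71 to 0.93) and no longer beyond 0.5, Fos at 1.74 (0.96 to 2.44) and Jund at −0.78 (−1.26 to −0.34). Erythroid-like WT cells held 10 Jund UMIs (36.9 CPM, 17.7 to 67.8) and 0 of each of the other members in 44 cells with a median of 6090 UMIs. Erythroid-like cells gave 271354 of the 476701 UMIs outside the T lineage in WT. In antigen-presenting-like WT cells Jund was at 170 CPM (119 to 237), not below the 149 CPM of T lineage cells. In Eif4g2 cKO the Jund ratio of cells outside the T lineage to T lineage cells was 0.30 (−0.45 to 0.97).

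**Figure D3:**
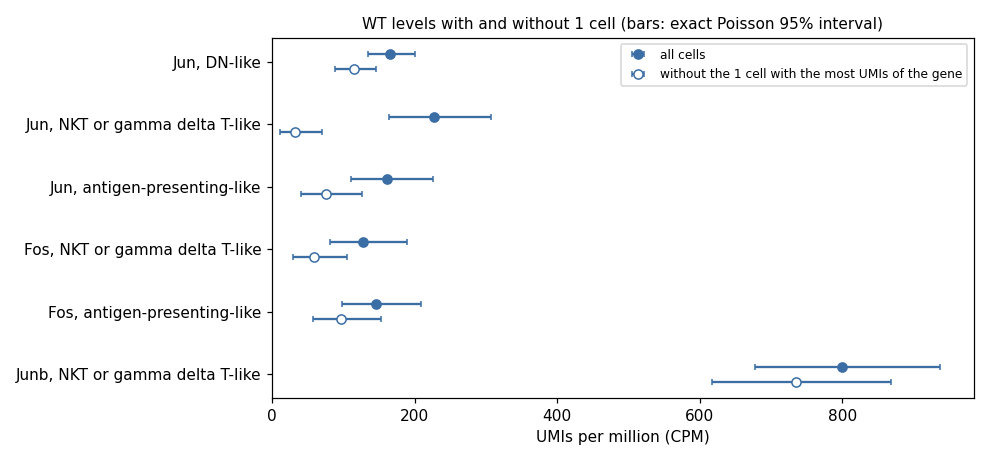
WT levels (CPM) of Jun, Fos and Junb with all cells (filled) and without the cell holding the most UMIs of that gene (open), with exact Poisson 95% intervals. Jun in NKT or gamma delta T-like cells went from 228 to 32.2, whereas Junb in the same cells went from 800 to 735.

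In T lineage cells as a whole, 4 members were lower in Eif4g2 cKO than in WT by more than 0.5 on the log2 scale, among the 6 with at least 50 UMIs over both libraries. These were Batf (log2 ratio −1.25, −1.52 to −0.99), Jun (−1.23, −1.46 to −0.997), Junb (−0.94, −1.04 to −0.85) and Fosl2 (−0.80, −1.70 to 0.05, from 52 UMIs). Of all 10533 genes with that many UMIs, 41.2% were lower by more than 0.5 and 5.19% higher, and the median over genes was −0.35, against −0.87 over the 6 members. Jun, Junb, Jund and Fos span under 5000 bases, and of the genes that short 18.4% were lower and 13.6% higher, with a median of 0.07. Jund (0.38, 0.30 to 0.45) and Fos (−0.41, −0.71 to −0.11) were within 0.5. Scaled by edgeR's TMM factors, which centre most genes on 0, Jund was higher at 0.75 and Fosl2 was within 0.5 at −0.44, while Jun (−0.86), Batf (−0.88) and Junb (−0.58) were lower. With every cell thinned to 1000 UMIs only Jun was lower among members with enough UMIs (−0.72), Junb (−0.46) and Batf (−0.48) were within 0.5 and Jund was higher at 0.62.

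Part of the difference in Junb, Batf and Fosl2 moved with the mix of classes. Mature SP-like cells held 13.5% of the T lineage UMIs in WT and 4.43% in Eif4g2 cKO, and the unnamed class held 16.3% and 40.4%. Of the WT Junb UMIs, 34.9% came from mature SP-like cells. With the Eif4g2 cKO levels weighted by the class shares of WT, the log2 ratio of Junb was −0.46, that of Batf −0.74 and that of Fosl2 0.25, whereas Jun stayed at −1.13 and Jund was at 0.67.

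Within the 5 named classes from DN-like to mature SP-like, 11 values of a member were lower by more than 0.5 and 3 higher, the latter all of Jund. Members with enough UMIs numbered 3 in DN-like, 5 in cycling-like, 5 in DP-like, 5 in early post-selection-like and 4 in mature SP-like cells. With thinned cells 4 were lower and the 3 of Jund were higher. The 4 were Jun in DP-like cells, Junb in early post-selection-like and mature SP-like cells and Batf in early post-selection-like cells. Thinning leaves fewer UMIs, and a member below the minimum for a call could not count as lower. The fall from 11 to 4 therefore does not show that the ratios became smaller. In DN-like cells Jun (−1.80, −2.36 to −1.26) and Junb (−0.64, −1.04 to −0.23) were lower in Eif4g2 cKO, where 25.8% of genes were lower by more than 0.5 and 10.3% higher (7.65% and 16.2% of short genes, those spanning up to 5000 bases). Without the cell with the most Jun UMIs in each library the Jun ratio was −1.43 (−2.06 to −0.82). With TMM factors Junb was within 0.5, at −0.43. In cycling-like cells Jun (−0.80), Batf (−1.41) and Fos (−0.55, −1.21 to 0.09) were lower (32% of genes were) and Jund was higher at 0.78 (4.9% of genes were), beside 12.7% of short genes lower and 11.9% higher. With TMM factors Fos was within 0.5, at −0.32. Within the cycling-like clusters Jund was at 0.87 (0.47 to 1.25) in that led by histone genes, 1.03 (0.66 to 1.41) in the smaller one led by Ube2c and 0.07 (−0.58 to 0.82) in the one that held 490 of the 648 Eif4g2 cKO cells and 25 WT cells. In early post-selection-like cells Junb (−0.63, −0.86 to −0.40) and Batf (−1.34, −1.98 to −0.75) were lower against 34.5% of genes, and Jund (0.62, 0.34 to 0.90) was higher against 7.41%, or 9.44% and 16.5% of short genes. With TMM factors Junb was within 0.5 there, at −0.40, and Batf was at −1.11. In mature SP-like cells Jun (−1.18, −2.19 to −0.30), Junb (−0.73, −0.98 to −0.50) and Batf (−1.09, −1.90 to −0.37) were lower against 36.3% of genes and 12.5% of short genes. Of short genes 18% were higher there, and Jund was at 0.32 (0.07 to 0.57). Batf spans 22419 bases, so in each class the share of short genes is for Jun, Junb, Jund and Fos only.

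In DP-like cells Jund was higher in the mutant library. Its 207 CPM in WT stood against 375 CPM in the mutant, giving 0.86 (0.74 to 0.97) on the log2 scale, while 8.36% of all genes and 20.8% of genes spanning up to 5000 bases were higher by more than 0.5. As the libraries filled different DP-like clusters, the ratio was also taken within each. It was 0.79 (0.40 to 1.16) in the cluster led by Smoc1, 0.87 (0.51 to 1.22) in that led by Themis and 0.95 (0.61 to 1.31) in that led by Rag1. With every cell thinned to 1000 UMIs, 18.7% of WT and 31.2% of Eif4g2 cKO DP-like cells held a Jund UMI. Jun was lower in these cells (−0.75, −1.36 to −0.18), where 29.5% of genes and 8.27% of short genes were. Junb (0.21, 0.01 to 0.40), Batf (0.20, −0.32 to 0.71) and Fos (0.20, −0.48 to 0.86) were within 0.5.

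**Figure D4:**
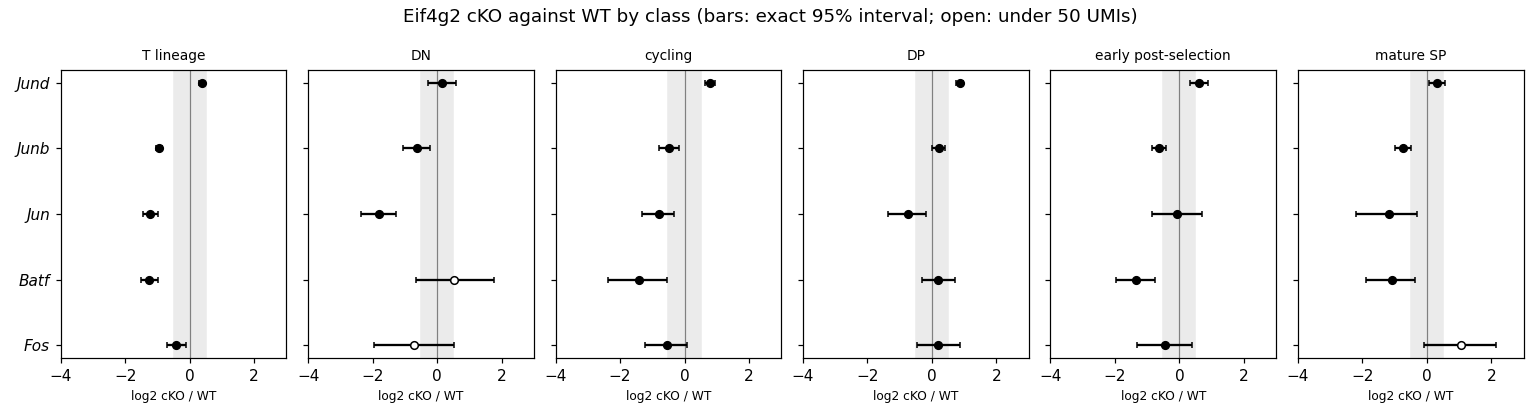
Log2 ratio of Eif4g2 cKO to WT for 5 AP-1 genes in T lineage cells and 5 of their classes, with exact 95% counting intervals, the grey band spanning −0.5 to 0.5 and open points resting on under 50 UMIs. Jund was at 0.86 in DP-like cells, and Batf at −1.34 in early post-selection-like cells.

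The step from DP-like to early post-selection-like cells was smaller in Eif4g2 cKO for Junb and Batf. The Junb step was 1.71 on the log2 scale in WT but 0.88 in the mutant, a difference of −0.83 (−1.13 to −0.54). For Batf the steps were 2.15 and 0.61, a difference of −1.54 (−2.30 to −0.78). Of all genes, 12.4% in WT and 8.52% in Eif4g2 cKO were higher by more than 0.5 in the early post-selection-like class, and 25.9% and 29.6% lower. Jund was lower by 0.66 in WT and 0.90 in Eif4g2 cKO, and the difference of −0.24 (−0.54 to 0.06) included 0. The differences for Fos (−0.65, −1.67 to 0.37) and Jun (0.69, −0.23 to 1.61) also included 0. Between early post-selection-like and mature SP-like cells the Junb step was 0.23 (0.06 to 0.39) in WT and 0.12 (−0.17 to 0.40) in Eif4g2 cKO.

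The lists of related genes were read the same way in T lineage cells, beside the 41.2% lower and 5.19% higher of all genes. Of 17 other bZIP genes with enough UMIs, 10 were lower and 0 higher, with a median of −0.58. They included the repressors Bach2 (158 to 21.2 CPM, −2.89) and Bach1 (−1.02) and the cAMP-responsive factor Creb1 (−1.06), whereas the stress-response factor Atf4 was at −0.01. Of 26 MAP kinase pathway genes 14 were lower and 0 higher (median −0.54). Rasgrp1, which couples the T cell receptor to Ras, was at −0.84. Of 7 partner factors 6 were lower, among them Ets1 (−0.87), Nfatc3 (−0.84) and Runx1 (−1.70).

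The other immediate-early genes differed in direction between classes. In T lineage cells 10 of 21 were lower, Btg1 (−0.57) and Zfp36l1 (−0.90) among them, and Zfp36l2 (0.69) and Dusp2 (0.88) were higher. In mature SP-like cells, where Jun, Junb and Batf were lower, 5 of 16 were higher, against 9.73% of all genes and 18% of short genes. These were Egr1 (0.52), Nr4a1 (0.86), Dusp1 (0.65), Dusp2 (1.07) and Zfp36l2 (0.89), and Klf6 and Ppp1r15a were lower. Of 10 heat shock and dissociation stress genes 0 were beyond 0.5 in T lineage cells, with a median of 0.31. In DP-like cells, where Jund was higher, 5 of 9 of them were higher (Hspa8, Hspa5, Hspd1, Hspe1 and Dnaja1) and 0 lower, beside 8.36% of all genes and 20.8% of short genes higher, and their part in the Jund level was not tested.

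Across 15 sums of a class in a library, the gene most like Batf among the members was Junb (Pearson r 0.91 on log2(CPM + 10)), and Jun and Jund were the least alike (0.22). The 3 genes nearest to Junb among 8890 were Guk1 (0.93), Batf (0.91) and Sp110 (0.91), and those nearest to Jund were Eif4a2 (0.92), Ube2v1 (0.91) and Derl2 (0.91). Those nearest to Jun were Iqsec1 (0.93), Capg (0.90) and Susd3 (0.90), to Fos Plekho2 (0.87), Aco1 (0.86) and Efhd2 (0.85), and to Batf Ppp3ca (0.92), Junb and Gng2 (0.91). The points share their libraries, and the Jun and Fos values include the single cells described above in DN-like, NKT or gamma delta T-like and antigen-presenting-like WT cells. The points also include the erythroid-like WT cells, where Jun, Junb, Fos and Batf had 0 UMIs and Jund was at 36.9 CPM. The weight of that point in the r values was not tested.

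Of the members, Jun (chr4:95049034-95052222), Jund (chr8:70698949-70700616) and Junb (chr8:84974484-84978718) each span under 5000 bases by GENCODE M21 (GRCm38). Junb overlaps Prdx2, which runs on the opposite strand and gave 5820 WT and 7214 mutant UMIs. The strand used in counting is not given in the sources used here, so reads of the pair could not be told apart if strand was not used.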

How the data were processed

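The deposited files hold UMI counts per gene and cell for the WT and the Eif4g2 cKO library, made by the authors with dnbc4tools (2.1.3 by the series text, 3.0 in the file headers) on mm10 per the submitters' processing notes. The oligo libraries had no values of their own. Each genotype had 1 library, so no p-values were computed. Cells with at least 50 genes and at most 10% mitochondrial UMIs were kept (6012 in WT and 4335 in Eif4g2 cKO). They were clustered with scanpy 1.11.5 (2000 variable genes without the AP-1 and related genes, 30 components, 20 neighbours, Leiden resolution 1) and named from markers, with at least 3 raised. The 8 members and the lists were chosen with earlier results of these data known.

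UMIs were summed per class and library and scaled to a total of 1000000 (CPM). Intervals are exact Poisson for levels, exact binomial for ratios and Clopper-Pearson for shares, and that of a difference of steps uses the delta method. Genes needed 50 UMIs over both libraries to be called beyond 0.5, and 3 UMIs was the floor. Named genes were all members, the up to 4 genes with the most UMIs in each list, genes of a list counted at 5 or fewer, and the 3 most alike genes, except that some are not reported here. Doublets were not called. Values without the cell with the most UMIs, the differences of steps and the sum of Y-linked genes were chosen after seeing the data. Gene spans come from GENCODE M21, which matched 97.5% of the identifiers. The ratio calculation was tested on simulated data. Scaling alternatives used edgeR 4.0.16 and DESeq2 1.42.0.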

Additional observations from a re-analysis of the deposited data

Results flagged for a closer look

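The AP-1 sum had opposite signs in the libraries at 2 steps. Against DP-like cells it differed by a log2 ratio of 0.71 in WT and −0.14 in Eif4g2 cKO in early post-selection-like cells. The sign in Eif4g2 cKO turned with TMM factors (0.024) and DESeq2 size factors (0.038). Against the same cells it differed by 0.58 and −0.64 in DN-like cells, where the second value was 0.44 without Jund. Junb compared between the libraries was at −0.64 in DN-like, −0.48 in cycling-like, 0.21 in DP-like, −0.63 in early post-selection-like and −0.73 in mature SP-like cells. The AP-1 sum was at −0.62, 0.30, 0.61, −0.24 and −0.31 in the same order. The difference between classes was not tested, since each genotype had 1 library. Jund held 60.3% of the AP-1 UMIs of DP-like cells in WT and 71.8% in Eif4g2 cKO.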

How the results depend on the processing

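No paired analysis was possible because each genotype had 1 library. The 3 alternatives that left out a cell, used the WT class mix or left out Jund were chosen after seeing the data. Of the values answering a comparison, 153 moved by less than their interval or count limit and 60 by more, several of them with a change of sign of a sum that was within 0.5. Another 1, beyond 0.5, changed sign. The cause was not tested.

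By CPM the AP-1 sum between libraries was −0.25 (−0.30 to −0.20) in T lineage cells. It was 0.31 for outside against T lineage WT cells by CPM. For mature SP-like against early post-selection-like cells it was 0.23 (WT) and 0.16 (Eif4g2 cKO). The scaling shifted the median of genes, by −0.37 (edgeR TMM) and −0.40 (DESeq2) between the libraries in T lineage cells. With these the AP-1 sum between libraries was 0.12 and 0.14 in T lineage cells, 0.79 and 0.80 in DP-like, −0.015 and −0.0010 in early post-selection-like and −0.13 and −0.12 in mature SP-like cells. For outside against T lineage WT cells it was 1.44 and 1.46. For early post-selection-like against DP-like cells in Eif4g2 cKO it was 0.024 and 0.038, for mature SP-like against early post-selection-like 0.56 and 0.55 (WT) and 0.43 and 0.44 (Eif4g2 cKO), and for DN-like against DP-like 0.89 and 0.94 (WT) and −0.25 and −0.22 (Eif4g2 cKO). Without ribosomal and mitochondrial genes in the totals it was −0.12 in T lineage and 0.73 in DP-like cells between libraries, 0.055 for outside WT cells, 0.47 and 0.40 for mature SP-like cells and 0.92 and −0.33 for DN-like cells.

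The mean over cells gave 0.10 and thinning 0.13 for T lineage cells, and thinning −0.37 for DN-like cells in Eif4g2 cKO. The strict cell filter gave −0.079 for T lineage cells, −0.072 for outside WT cells and 0.11 for mature SP-like WT cells. Resolution 0.6 gave 1.16 for outside WT cells, 0.85 for early post-selection-like WT cells and −0.12 and −0.12 for mature SP-like cells, and seed 2 gave 0.088 for mature SP-like WT cells. Outside WT cells were at 0.047 without the cell with the most UMIs and 0.75 without those holding a Cd3 UMI.

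Without Jund the sum was 0.74 for outside WT cells, 1.66 and 0.88 for early post-selection-like, 0.11 for mature SP-like WT and 1.53 for DN-like WT cells, and turned to 0.44 for DN-like Eif4g2 cKO cells. Between libraries it was then −0.97 in T lineage, 0.12 in DP-like, −0.66 in early post-selection-like and −0.70 in mature SP-like cells. The WT class mix gave 0.089, and turned Fosl2 to 0.25. Members lower in T lineage cells numbered 1 when thinned and 2 with the WT class mix, and Jund became 1 member higher under those, both scalings, the strict filter, the mean over cells and totals without ribosomal and mitochondrial genes. Calls of a member in a class numbered 4 lower when thinned, against 11. Members left with too few UMIs by thinning could not be called, so this fall does not show smaller ratios.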
